A study of Homo sapiens with 31 samples.

Results

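The libraries described here follow MCF10A, an established non-transformed line of human breast epithelium, between 9 and 15 h after release from starvation in the continued presence of palbociclib, an inhibitor of the kinases CDK4 and CDK6. The members were chosen by their titles: 3 libraries of palbociclib at 15 h were set against 3 at 9 h, and 3 at 12 h gave the point between, 9 of the 31 libraries of the series. Cells in every group had been kept for 2 to 3 days without serum, epidermal growth factor and insulin, while hydrocortisone, cholera toxin and albumin stayed in the medium. They were then released into full medium with 5% horse serum, epidermal growth factor, insulin, hydrocortisone and cholera toxin. The palbociclib groups received 1 µM of the drug and the comparison groups 0.1% DMSO, its vehicle, with 3 libraries at 9 h and 3 at 15 h used here. Positive differences mean higher at 15 h.

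Mitogens drive cyclin D to bind CDK4 and CDK6, and these kinases phosphorylate the retinoblastoma protein RB and its relatives. Phosphorylated RB releases the E2F transcription factors, which switch on genes for DNA replication and, later, mitosis; palbociclib keeps RB active and holds many cells in G1. Growing cells also run other programs. Among them are sterol and fatty acid synthesis under the SREBP factors, the unfolded protein response of the secretory pathway, and ribosome production. Whether RB acts on these programs was not tested here.

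Libraries held from 11498534 to 20351167 reads assigned to genes, and mitochondrial names took 2.95% to 4.38% of them. After a filter on low counts, 15787 of 56269 gene names were tested. Levels are given as CPM, counts scaled to library size with TMM factors, in the order of replicates 1, 2 and 3. A gene was called when edgeR's quasi-likelihood test gave an adjusted p below 0.05. The labels do not say that the replicates were separate cultures, so a p-value here reflects the spread among libraries, which may be technical. The summed level of 6 basal markers, KRT5 and KRT14 among them, was 12020 to 12411 CPM at 9 h and 11336 to 12014 CPM at 15 h. The 6 luminal markers summed to 565 to 607 CPM at 9 h and 498 to 549 CPM at 15 h, nearly all of it the keratins KRT8 and KRT18. Mesenchymal markers summed to at most 22.5 CPM. Those of blood and endothelium summed to 14.4 to 17.8 CPM at 9 h and 8.66 to 11.1 CPM at 15 h, nearly all of it CD14; their part in the results was not tested. ELF5 and COL3A1 were at 0 in all 9 libraries.

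Many genes still changed while CDK4 and CDK6 were inhibited. Between 9 and 15 h under palbociclib 1970 genes rose, 12.5% of those tested, and 2426 fell, 15.4% of those tested. Genes of sterol and fatty acid synthesis and of the unfolded protein response rose in nearly all their tested members. Where genes of ribosome production, cytosolic heat shock proteins and squamous differentiation changed, nearly all fell. Changes of at least 2-fold were found in 210 rising genes (1.33%) and 259 falling genes (1.64%), and the median log2 fold change of all tested genes was -0.01. The 3 libraries of 15 h lay wholly above or wholly below those of 9 h for 6180 genes (39.1%), including 1857 of the 1970 that rose and 2336 of the 2426 that fell. RNA was taken from whole cultures, so fewer cells of one state cannot be told apart from less RNA per cell.

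**Figure D1:**
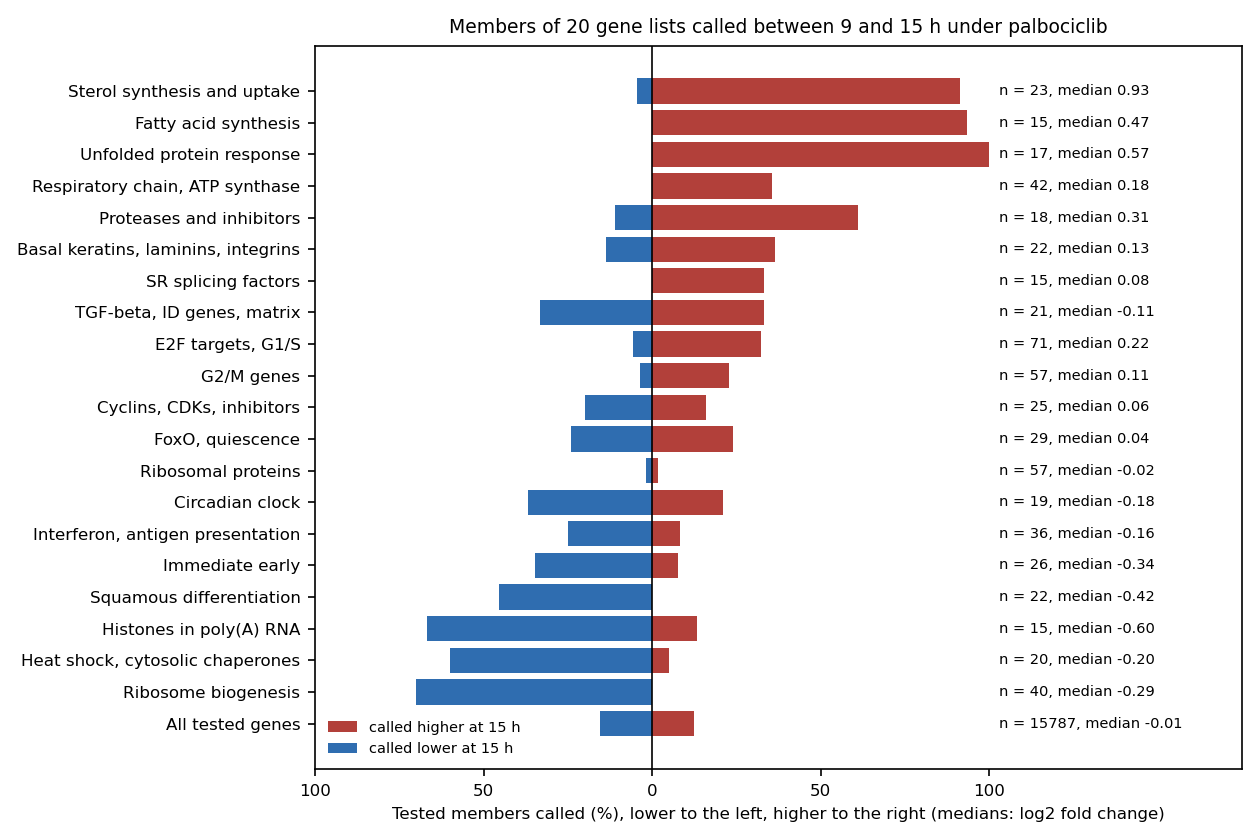
Share of the tested members of gene lists called lower (blue, to the left) or higher (red, to the right) at 15 h against 9 h under palbociclib, in percent, with the number tested and the median log2 fold change at the right. Sterol, fatty acid and unfolded protein response lists reach 91.3% or more on the right; ribosome biogenesis reaches 70.0% on the left, beside 12.5% and 15.4% for all tested genes.

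Sterol and fatty acid genes rose together. Of 23 tested genes of cholesterol synthesis and uptake, 21 rose and 1 fell, with a median log2 fold change of 0.93; of 15 genes of fatty acid synthesis and desaturation, 14 rose and none fell, with a median of 0.47. INSIG1 (chr7:155297776-155310235, GRCh38, plus strand) encodes the membrane protein that holds the SREBP escort factor in the endoplasmic reticulum and is itself an SREBP target. Its level was 32.5, 29.3 and 28.2 CPM at 9 h, 45.6, 48.3 and 54.9 CPM at 12 h, and 97.0, 112 and 124 CPM at 15 h. The 3 times did not overlap, and INSIG1 rose by 1.89 ± 0.10 (log2, SE; adjusted p = 2.6e-15).

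FADS2, the delta-6 desaturase of polyunsaturated fatty acids, had 8.15, 8.90 and 8.14 CPM at 9 h, 16.4, 15.6 and 17.4 CPM at 12 h, and 34.5, 40.9 and 45.8 CPM at 15 h. It was among the largest rises of the interval at a log2 fold change of 2.27 ± 0.10 (adjusted p = 1.1e-16). SCD, the desaturase that makes oleate, had 279, 303 and 284 CPM at 9 h against 834, 891 and 968 CPM at 15 h, a rise of 1.64 ± 0.08. FADS1, the delta-5 desaturase that follows FADS2, rose by 1.58, and LPIN1, a phosphatidate phosphatase of triglyceride and phospholipid synthesis, by 0.99. In each of these genes every 15 h library was above every 9 h library.

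Within the sterol pathway, MSMO1, a C4-methylsterol oxidase, moved from 109, 104 and 103 CPM at 9 h through 161, 155 and 165 CPM to 242, 274 and 278 CPM at 15 h, a rise of 1.33 ± 0.06 (adjusted p = 4.3e-16). STARD4, a cytosolic sterol carrier, rose by 1.59, and IDI1, the isopentenyl diphosphate isomerase, by 1.43, although 17.9% of the exonic length of IDI1 overlaps a gene on the other strand. SREBF2, which encodes SREBP-2 itself, stood at 103, 104 and 102 CPM at 9 h and at 127, 133 and 142 CPM at 15 h. Its rise was smaller than those of the genes just named, at 0.39 ± 0.06 (adjusted p = 1e-05). The list's single fall was in TM7SF2, a sterol C14-reductase, at -0.78 ± 0.20 (adjusted p = 0.004), and without the third 15 h library its adjusted p was 0.053.

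At 12 h these lists were less far along than the called genes as a whole, a description with no test of the difference. By 12 h the rising genes as a whole had covered a median of 62.3% of their 9 to 15 h change on the log2 scale, and the falling genes 59.7%. The median over called members was 42.3% for the sterol list and 45.3% for the fatty acid list. Between 12 and 15 h alone 217 genes (1.37%) rose and 251 (1.59%) fell, and 18 of the 23 sterol genes and 10 of the 15 fatty acid genes were among those that rose. LPIN1 gained 0.29 (adjusted p = 0.0065) from 9 to 12 h and 0.70 (adjusted p = 3.2e-08) from 12 to 15 h.

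**Figure D2:**
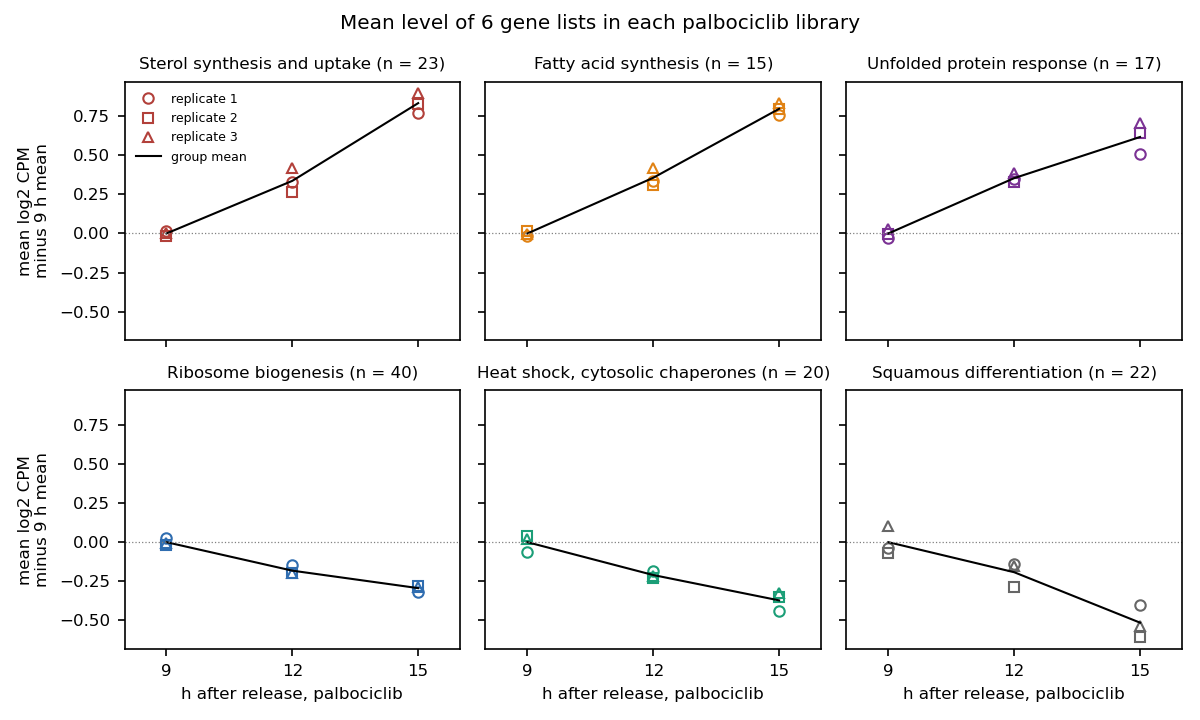
Mean log2 CPM over the tested members of gene lists in each palbociclib library, minus the mean of the 9 h libraries, at 9, 12 and 15 h; marker shapes are replicate numbers and lines join group means. Sterol genes stand 0.77 to 0.90 above their 9 h mean at 15 h and ribosome biogenesis genes 0.28 to 0.32 below it.

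All 17 tested genes of the unfolded protein response rose, with a median log2 fold change of 0.57. This response raises chaperones and degradation factors of the endoplasmic reticulum through the transcription factors ATF6 and XBP1. HSPA5 (chr9:125234853-125241330, minus strand), the chaperone BiP, had 712, 699 and 721 CPM at 9 h, 978, 969 and 1070 CPM at 12 h and 1240, 1360 and 1520 CPM at 15 h. Each later time lay wholly above the one before, and HSPA5 rose by 0.95 ± 0.08 (adjusted p = 4.2e-11). The co-chaperone DNAJC3 rose by 0.85, and HYOU1, the large BiP-associated exchange factor, by 0.66.

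Promoter windows of the response are shown because the recognition sequence of ATF6, the ER stress element, can be read in them. This search was added after the counts of the list had been seen. The element was searched as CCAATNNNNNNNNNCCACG on both strands of the 300 bases from 250 before to 50 after each gene's start, in RefSeq promoters of GRCh38.p14. It can overlap an E-box by 4 letters at its end. Only 22 of 27305 windows held it (0.0806%), a set that includes untested genes. The list was drawn up from genes known for the response, so its share is no finding of these data. Of the 16 windows that matched members of the list 5 held the element (31.2%). Besides CALR, whose match begins 225 bases before the start, these were HSPA5, HSP90B1, CRELD2 and XBP1, named here for holding the match. Their last 200 bases before the start follow, with the element in capitals.
HSPA5: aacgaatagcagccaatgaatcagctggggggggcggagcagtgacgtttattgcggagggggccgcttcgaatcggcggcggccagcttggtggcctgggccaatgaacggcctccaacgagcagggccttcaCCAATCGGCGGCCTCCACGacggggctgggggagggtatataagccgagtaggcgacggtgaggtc
HSP90B1: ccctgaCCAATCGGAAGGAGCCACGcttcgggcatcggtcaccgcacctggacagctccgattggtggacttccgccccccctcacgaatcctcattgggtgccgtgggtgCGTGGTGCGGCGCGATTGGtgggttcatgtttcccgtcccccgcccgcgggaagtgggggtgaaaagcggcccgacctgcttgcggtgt
CRELD2: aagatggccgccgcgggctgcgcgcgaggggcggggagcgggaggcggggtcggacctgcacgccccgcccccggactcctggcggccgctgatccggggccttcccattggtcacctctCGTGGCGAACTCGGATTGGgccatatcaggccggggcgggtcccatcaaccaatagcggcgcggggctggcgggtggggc
XBP1: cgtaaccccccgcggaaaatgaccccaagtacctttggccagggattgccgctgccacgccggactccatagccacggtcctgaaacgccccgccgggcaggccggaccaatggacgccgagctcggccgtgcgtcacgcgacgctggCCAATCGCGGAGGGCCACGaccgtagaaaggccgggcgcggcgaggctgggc
These windows lie at chr9:125241344-125241543, minus strand (HSPA5), chr12:103930210-103930409, plus strand (HSP90B1), chr22:49918434-49918633, plus strand (CRELD2) and chr22:28800570-28800769, minus strand (XBP1). The HSP90B1 window holds the element on each strand, beginning 194 and 89 bases before the start. A match describes letters and is no evidence of binding in these cells.

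Expression of these genes differed in size. HSP90B1, the chaperone GRP94, stood at 696, 730 and 744 CPM at 9 h and 877, 973 and 1040 CPM at 15 h, a rise of 0.41 ± 0.07 (adjusted p = 3.1e-05). CRELD2, a secreted and lumenal stress protein, rose by 0.57 ± 0.07, and XBP1 by 0.29 ± 0.07 (adjusted p = 0.0022). HERPUD1, a membrane protein of the degradation machinery, followed another course within the list. It had 35.7, 41.8 and 45.8 CPM at 9 h, 89.3, 81.3 and 88.8 CPM at 12 h and 87.0, 94.4 and 92.5 CPM at 15 h. Its log2 fold change was 1.07 (adjusted p = 1.9e-11) from 9 to 12 h and 0.08 (adjusted p = 0.71) from 12 to 15 h.

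Of 23 targets of ATF4, the factor of the amino acid and integrated stress response, 6 rose and 3 fell. Among the rises were TRIB3, a pseudokinase, from 46.8, 36.6 and 37.1 CPM to 69.8, 66.9 and 72.4 CPM, and SLC7A11, the cystine transporter, at 0.99 ± 0.11. ATF4 itself fell by 0.38 ± 0.07 on the log2 scale (adjusted p = 0.00021).

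**Figure D3:**
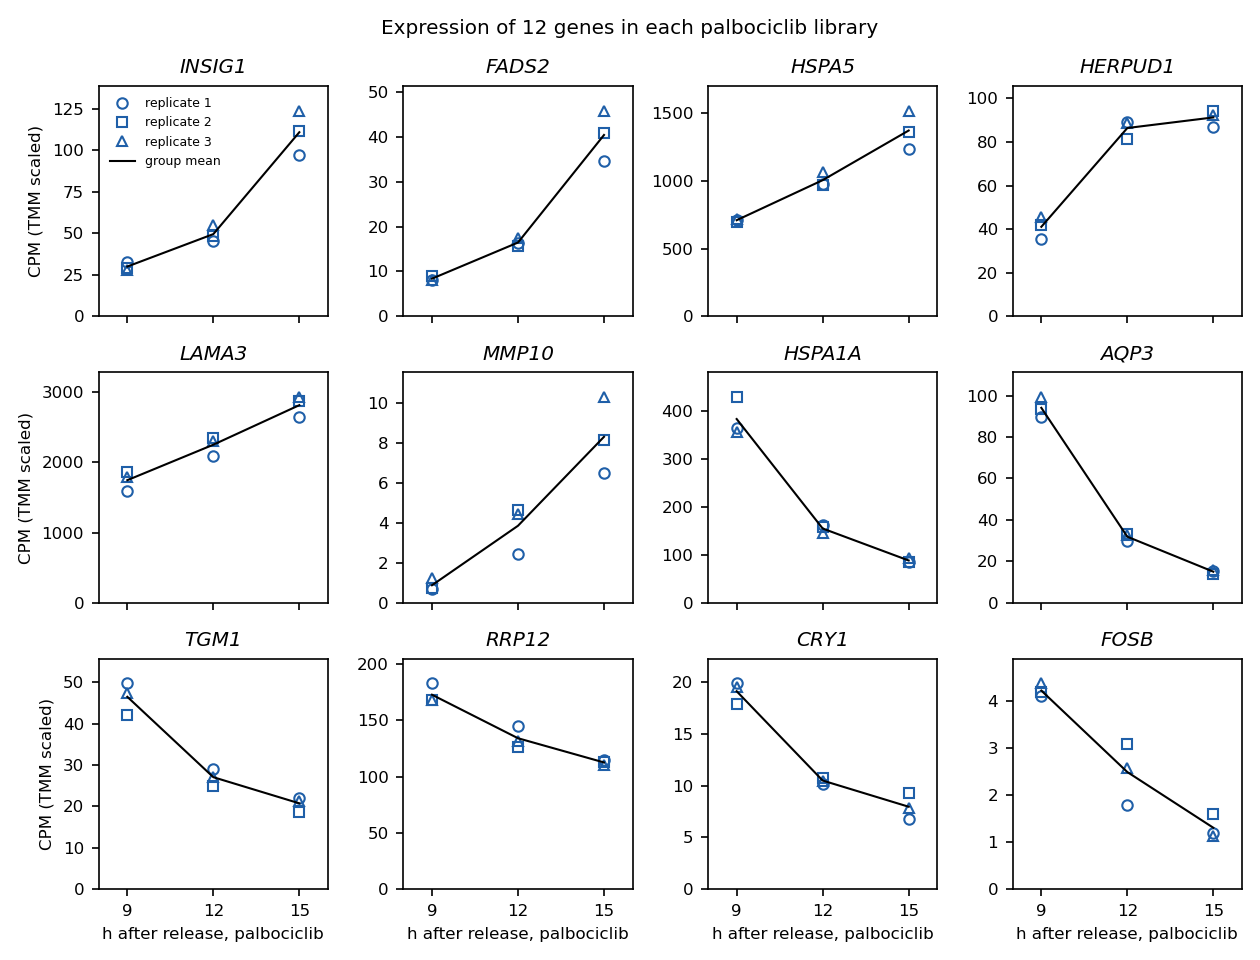
CPM of 12 genes, named above each panel, in every palbociclib library at 9, 12 and 15 h, each panel with its own axis from 0; marker shapes are replicate numbers and lines join group means. INSIG1, FADS2, HSPA5, HERPUD1, LAMA3 and MMP10 are higher at 15 h than at 9 h in all libraries, and the other six panels are lower.

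Genes for making ribosomes fell together. Of 40 tested genes of ribosome biogenesis none rose and 28 fell, with a median log2 fold change of -0.29; the ribosomal proteins themselves gave 1 rise and 1 fall among 57. RRP12, a factor of pre-ribosome export, moved from 183, 168 and 168 CPM at 9 h through 145, 126 and 132 CPM to 115, 113 and 110 CPM at 15 h. The times did not overlap, and RRP12 fell by 0.62 ± 0.07 on the log2 scale (adjusted p = 5.3e-08). DKC1, the pseudouridine synthase dyskerin, was at 200, 193 and 201 CPM at 9 h and 125, 138 and 135 CPM at 15 h. UTP20, a component of the small-subunit processome, was at 230, 240 and 213 CPM at 9 h and 172, 170 and 158 CPM at 15 h, a fall of 0.45 ± 0.05 on the log2 scale (adjusted p = 1.6e-07).

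MYC, whose protein binds the E-box CACGTG and drives many of these genes, had 471, 461 and 428 CPM at 9 h, 430, 418 and 390 CPM at 12 h and 378, 385 and 374 CPM at 15 h. The 9 and 15 h libraries did not overlap, but the log2 difference of -0.26 ± 0.11 did not pass the test in the fit of all libraries (adjusted p = 0.068). In the fit of the 9 palbociclib libraries alone it did (-0.24, adjusted p = 0.0025). CACGTG was found in 11 of 33 matched windows of the list (33.3%) and in 7.43% of all windows, which include those of untested genes. Such a match is no evidence of binding. The window of UTP20 is shown because the E-box, in capitals, begins 10 bases before the start, at chr12:101279905-101280104, plus strand.
UTP20: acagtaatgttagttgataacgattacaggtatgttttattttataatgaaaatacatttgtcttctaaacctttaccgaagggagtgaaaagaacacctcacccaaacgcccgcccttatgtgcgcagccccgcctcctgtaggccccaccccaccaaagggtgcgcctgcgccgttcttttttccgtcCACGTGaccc

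Heat shock genes also fell. Of 20 genes for cytosolic heat shock proteins and chaperones 12 fell and 1 rose, with a median log2 fold change of -0.20. HSPA1A, the inducible HSP70, stood at 364, 429 and 356 CPM at 9 h, 162, 157 and 145 CPM at 12 h and 84.3, 85.8 and 94.3 CPM at 15 h. It fell by 2.12 ± 0.10 on the log2 scale (adjusted p = 1.8e-16), and its near-identical neighbour HSPA1B by 1.33; how reads were divided between that pair is uncertain. HSPA8, the constitutive member, went from 4730, 5330 and 5250 CPM to 2940, 3190 and 3190 CPM, and HSPH1, the HSP110 exchange factor, fell by 0.80 on the log2 scale. The 1 rise was in CCT7, a subunit of the chaperonin that folds actin and tubulin, at 0.23 ± 0.05 (adjusted p = 0.0014).

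Markers of squamous differentiation moved in the same direction. None of 22 rose and 10 fell, with a median log2 fold change of -0.42. TGM1, the transglutaminase of the cornified envelope, had 49.7, 42.1 and 47.5 CPM at 9 h, 29.0, 24.9 and 27.2 CPM at 12 h and 22.1, 18.6 and 21.4 CPM at 15 h. CRCT1, a cornified envelope gene, went from 3.07, 3.73 and 3.21 CPM to 0.256, 0.383 and 0.0631 CPM. KRT10, the keratin of suprabasal cells, fell by 0.57 ± 0.06 on the log2 scale (adjusted p = 3.6e-09). Outside the list, AQP3 (chr9:33441154-33447611, minus strand), a glycerol and water channel of epithelia, moved from 89.6, 93.4 and 99.3 CPM through 29.7, 33.1 and 32.8 CPM to 15.3, 13.9 and 15.8 CPM. AQP3 thus fell by 2.65 ± 0.09 on the log2 scale (adjusted p = 2.3e-19), among the largest falls of the interval.

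Basal genes did not follow one direction. Of 22 genes for basal keratins, laminin chains, their receptors and related proteins, 8 rose and 3 fell, with a median log2 fold change of 0.13. KRT14 stood at 212, 253 and 226 CPM at 9 h, 368, 356 and 381 CPM at 12 h and 450, 472 and 489 CPM at 15 h, a rise of 1.03 ± 0.08 (adjusted p = 4.7e-11). Its dimer partner KRT5 had 2800, 2920 and 2950 CPM at 9 h and 2360, 2490 and 2520 CPM at 15 h, a fall of 0.23 ± 0.06 on the log2 scale (adjusted p = 0.0039) that missed the threshold without the first 15 h library (adjusted p = 0.055). KRT17, a keratin of activated epidermis, fell by 0.52 and EGFR, the receptor of the epidermal growth factor in the medium, by 0.54 on the log2 scale.

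The laminin of hemidesmosomes anchors epithelium to its basement membrane. LAMA3, its alpha chain, had 1590, 1860 and 1790 CPM at 9 h, 2090, 2350 and 2310 CPM at 12 h and 2650, 2870 and 2930 CPM at 15 h, a rise of 0.69 ± 0.06 (adjusted p = 8.2e-10), with no overlap between the libraries of the 3 times. COL17A1, a hemidesmosomal collagen, rose by 0.44. Of 18 proteases of the matrix and their inhibitors 11 rose and 2 fell, with a median of 0.31. MMP10, stromelysin-2, went from 0.673, 0.724 and 1.23 CPM through 2.46, 4.64 and 4.46 CPM to 6.48, 8.16 and 10.3 CPM, the largest named rise at 3.26 ± 0.31 (adjusted p = 2.3e-09). SERPINB2, an inhibitor of urokinase, fell in contrast from 131, 129 and 126 CPM to 34.7, 43.1 and 36.1 CPM, although 19.9% of its exonic length is shared with another gene on the same strand.

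Among 21 genes of TGF-beta signalling and its matrix targets 7 rose and 7 fell, with a median of -0.11 that was -0.02 without the third 15 h library and 0.00014 without the first. Fibronectin, FN1, was at 337, 386 and 327 CPM at 9 h, 545, 578 and 591 CPM at 12 h and 727, 758 and 697 CPM at 15 h, a rise of 1.06 ± 0.06 (adjusted p = 5.6e-14). LTBP2, a binding protein of matrix fibrils, rose by 1.38. The ligand gene TGFB1 fell by 0.37 and THBS1, thrombospondin-1, by 0.55 on the log2 scale, so members of 1 list changed in opposite directions. Mesenchymal genes gave 3 rises and 2 falls among 11, and luminal genes 2 and 2 among 9.

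Early growth factor response genes fell more often than they rose. Of 26 immediate early genes 9 fell and 2 rose, with a median of -0.34. JUND, an AP-1 subunit, was one of the rises, at 0.49 ± 0.09 (adjusted p = 6.7e-05). FOSB, another AP-1 subunit, went from 4.11, 4.19 and 4.38 CPM through 1.80, 3.09 and 2.58 CPM to 1.19, 1.59 and 1.14 CPM, a fall of 1.66 ± 0.27 on the log2 scale (adjusted p = 2.2e-05). FOS fell from 49.9, 46.7 and 46.6 CPM to 31.6, 32.2 and 31.6 CPM (adjusted p = 0.0055). EGR1, with 151, 171 and 148 CPM at 9 h and 138, 146 and 131 CPM at 15 h, did not pass the test in the fit of all libraries without a block (adjusted p = 0.76). Of 22 genes of ERK output 7 rose, among them the ETS factors ETV4 and ETV5 at 0.82 each, and 5 fell, among them FOSL1 at -0.60.

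The clock genes moved in both directions, 4 up and 7 down of 19, with a median of -0.18. CRY1, a repressor of the clock, fell from 19.9, 17.9 and 19.6 CPM at 9 h through 10.2, 10.7 and 10.5 CPM to 6.82, 9.26 and 7.82 CPM, by 1.24 ± 0.12 on the log2 scale (adjusted p = 9.3e-10). ARNTL, the activator BMAL1, rose from 57.7, 69.9 and 62.1 CPM to 83.7, 89.6 and 86.1 CPM (0.45 ± 0.08). Starvation and release, which reset such rhythms in culture, were given to every group, so time after release and clock time cannot be told apart.

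SNRPA, a protein of the U1 splicing particle, went from 14.0, 17.1 and 16.4 CPM through 41.6, 39.8 and 44.6 CPM to 68.6, 77.7 and 73.7 CPM, a rise of 2.2 ± 0.09 (adjusted p = 6.1e-18). Of 15 SR splicing factors 5 rose and none fell, with a median of 0.08 that was -0.01 with a length trend removed, and SRSF6 was among the rises at 0.62. Of 42 genes of the respiratory chain and ATP synthase 15 rose and none fell, with a median of 0.18; ATP5G1, the ATP synthase ring subunit, rose by 0.53. Histone transcripts present in poly(A) RNA gave 2 rises and 10 falls among 15, with a median of -0.60, and HIST1H2BD fell by 1.28 ± 0.15 on the log2 scale.

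Further lists gave few or mixed changes. Interferon and antigen presentation genes gave 3 rises and 9 falls among 36, with HLA-E falling by 0.72 on the log2 scale. Cytokine and NF-kappaB genes gave 4 and 8 among 19, p53 targets 8 and 4 among 29, and FoxO and quiescence genes 7 and 7 among 29. In the FoxO list SESN3, a sestrin, rose from 0.748, 2.02 and 2.39 CPM to 6.65, 6.46 and 5.93 CPM, and MXI1, a MYC antagonist, fell by 0.75 on the log2 scale. Glycolysis and hypoxia genes gave 8 rises and 6 falls among 22, NRF2 and pentose phosphate genes 7 and 5 among 19, lysosome and autophagy genes 4 and 7 among 26, YAP and TEAD targets 4 and 4 among 15, and glucocorticoid and cAMP targets 4 and 4 among 18. The 2 tested blood and endothelial genes gave 1 fall. Where none of a list rose or none fell, DESeq2 and an unadjusted p below 0.05 also gave none, except for 1 squamous rise by each and 1 SR factor fall at the unadjusted p.

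Nearly all measured E2F and G2/M genes had a lower change from 9 to 15 h under palbociclib than in DMSO. Under palbociclib 23 of 71 E2F targets of the G1/S transition rose and 4 fell, with a median of 0.22, and 13 of 57 G2/M genes rose and 2 fell, with a median of 0.11. In DMSO over the same hours all 71 and all 57 rose, with medians of 1.81 and 3.66, while 2836 (18.0%) of all tested genes rose and 2329 (14.8%) fell. The difference between the arms was tested gene by gene: the change was lower under palbociclib in 618 genes (3.91%), by at least 2-fold in 282 (1.79%), and higher in 21 (0.133%). The count of 21 became 33 with RLE size factors, 34 with DESeq2, 42 with library totals and 46 with no filter on low counts. Those lower included 66 of the 71 E2F targets and 56 of the 57 G2/M genes, and the other 496 of the 618 are in neither list.

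CDC6 (chr17:40287633-40304657, plus strand), the loader of the replicative helicase, was among the largest rises under palbociclib. Its level was 0.823, 0.776 and 0.684 CPM at 9 h, 1.48, 1.10 and 2.23 CPM at 12 h and 4.09, 2.96 and 3.66 CPM at 15 h, a log2 fold change of 2.19 ± 0.27 (adjusted p = 1.8e-07). In DMSO it went from 15.9, 16 and 12.2 CPM to 109, 110 and 100 CPM, so that the palbociclib level at 15 h stayed below the DMSO level at 9 h in every library. The 2 log2 changes differed by -0.65, which did not pass the test (adjusted p = 0.47).

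E2F1, the founding E2F and a target of its own family, had 0.449, 0.362 and 0.547 CPM at 9 h and 1.36, 1.15 and 0.820 CPM at 15 h under palbociclib, a rise of 1.28 ± 0.34 (adjusted p = 0.0045). The E2F motif, searched on both strands as TTTGGCGC, TTTCCCGC, TTTGCCGC or TTTCGCGC, was in 30 of 59 matched windows of the E2F list (50.8%) and 3.33% of all windows. The list was drawn up from E2F targets, so its share is no finding of these data. All windows include those of untested genes. List members with a match before the start included some that rose, some that were not called, and POLE and TYMS, which fell. A match describes letters and is no evidence of binding or of a change. E2F1 is shown because its window holds a pair of matches on opposite strands just before the start, in capitals, at chr20:33686386-33686585, minus strand.
E2F1: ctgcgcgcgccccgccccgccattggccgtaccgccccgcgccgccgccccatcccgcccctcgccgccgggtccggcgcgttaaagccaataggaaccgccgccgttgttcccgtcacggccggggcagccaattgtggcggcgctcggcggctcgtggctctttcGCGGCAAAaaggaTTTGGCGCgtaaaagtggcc

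CCNE1, the cyclin that activates CDK2 at the G1/S transition, stood at 3.07, 2.38 and 2.94 CPM at 9 h and 4.18, 6.35 and 3.85 CPM at 15 h under palbociclib, a rise of 0.82 ± 0.19 (adjusted p = 0.0011). MCM2, a helicase subunit, moved from 12.7, 11.5 and 11.0 CPM to 13.5, 16.1 and 15.7 CPM, by 0.38 ± 0.11 (adjusted p = 0.0099). In DMSO MCM2 went from 37.7, 39.6 and 35.0 CPM to 150, 151 and 123 CPM, and the difference between arms was -1.54 (adjusted p = 6.6e-10). BRCA1, of homologous recombination, rose by 0.68 and CHEK1, the replication checkpoint kinase, by 0.54 under palbociclib.

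A few members went down under palbociclib. POLE, the leading strand polymerase, fell from 50.0, 53.6 and 48.3 CPM at 9 h to 39.3, 34.1 and 36.1 CPM at 15 h, by 0.48 ± 0.07 on the log2 scale (adjusted p = 7.2e-06), while in DMSO it rose by 0.93. UNG, the uracil glycosylase, fell by 0.45 ± 0.10 on the log2 scale (adjusted p = 0.00059) and in DMSO rose by 1.35. SLBP, the histone mRNA binding protein, fell by 0.26 ± 0.09 on the log2 scale (adjusted p = 0.025), but it missed the threshold in 5 of 16 alternatives: at adjusted p = 0.053 with the length trend removed, 0.092 and 0.067 without the first or the second 9 h library, and 0.11 and 0.10 without the first or the third 15 h library. TYMS, the thymidylate synthase, fell by 0.54 ± 0.20 on the log2 scale (adjusted p = 0.041), but it missed the threshold in 14 of 16 alternatives, at adjusted p from 0.051 to 0.13. The exonic length of TYMS also overlaps a gene on the other strand by 26.2%.

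**Figure D4:**
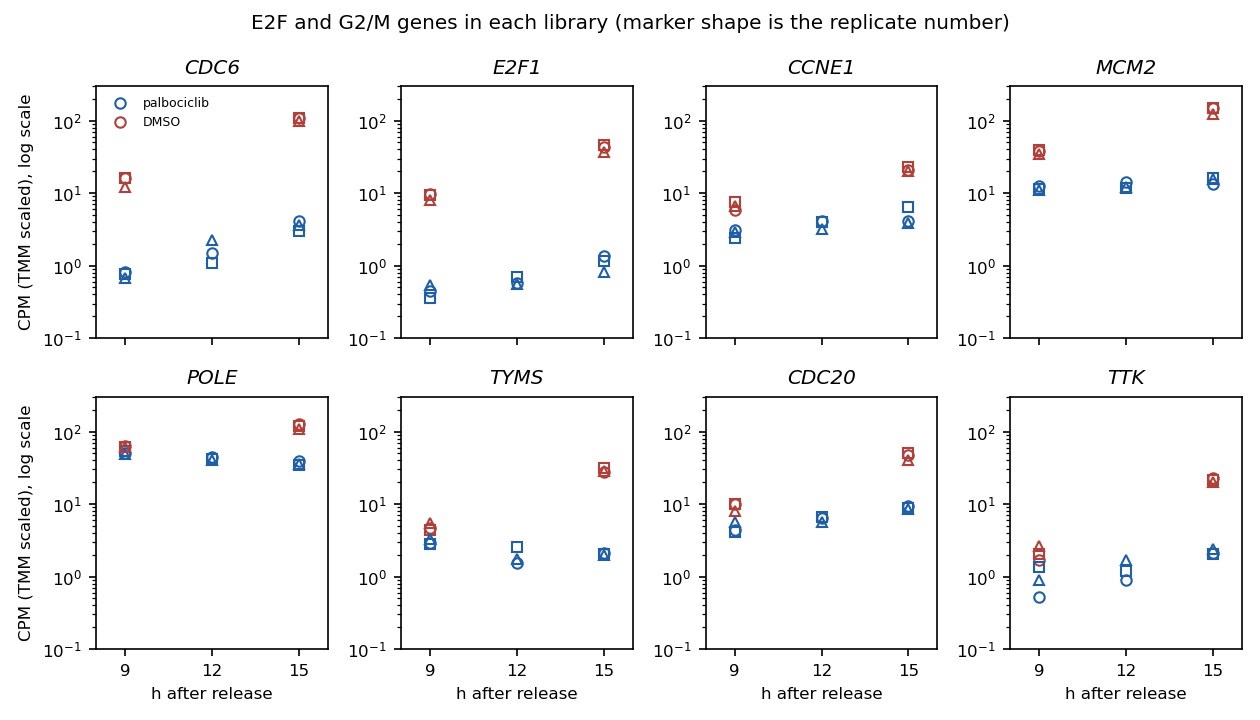
CPM on a log axis of cell cycle genes in each palbociclib library (blue; 9, 12 and 15 h) and DMSO library (red; 9 and 15 h); marker shapes are replicate numbers. CDC6, E2F1, CCNE1, MCM2, CDC20 and TTK rise under palbociclib from levels below those of DMSO, while POLE falls there and rises in DMSO.

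Of the mitotic genes, CDC20, the activator of the anaphase-promoting complex, went from 4.41, 4.14 and 5.68 CPM at 9 h to 9.38, 8.71 and 8.64 CPM at 15 h under palbociclib, a rise of 0.91 ± 0.15 (adjusted p = 3.1e-05). TTK, a spindle checkpoint kinase, rose by 1.17 ± 0.26 and AURKA, a centrosomal kinase, by 0.67 ± 0.11. The 2 called falls of the G2/M list were CCNB2 at -0.65 ± 0.23 (adjusted p = 0.032) and ESPL1 at -0.56 ± 0.16 (adjusted p = 0.0069). Most members, 42 of 57, were not called. MKI67, the proliferation marker, stood at 1.87, 2.07 and 2.26 CPM at 9 h and at 1.62, 2.08 and 2.02 CPM at 15 h, groups that overlap. In DMSO MKI67 went from 4.13, 3.71 and 5.68 CPM to 157, 165 and 133 CPM, and the difference between arms was -5.21 (adjusted p = 1.6e-10).

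Genes for cyclins, their kinases, inhibitors and pocket proteins changed in both directions. The list of 25 also holds CCNG1, CCNG2, CCNH and the E2F factor E2F4, and not all members act upstream of RB. In it 4 rose and 5 fell, with a median of 0.06. CCND1, the cyclin partner of CDK4 and CDK6, was at 668, 657 and 654 CPM at 9 h and 546, 602 and 550 CPM at 15 h; the log2 difference of -0.22 ± 0.10 did not pass the test (adjusted p = 0.088) but did in the fit of the 9 palbociclib libraries (-0.21, adjusted p = 0.0071). CCND3 rose by 0.40 ± 0.07 (adjusted p = 2.4e-05). CDK4, the drug's target, stood at 44.6, 46.6 and 45.5 CPM at 9 h and 36.7, 34.2 and 32.7 CPM at 15 h, a fall of 0.41 ± 0.08 on the log2 scale (adjusted p = 0.00024), and 43.2% of its exonic length overlaps a gene on the other strand. CDK6 had 328, 334 and 314 CPM at 9 h and 348, 350 and 308 CPM at 15 h (adjusted p = 0.77), and RB1 differed by 0.08 ± 0.07 (adjusted p = 0.48). The changes of CDK4 and RB1 were lower than in DMSO by -0.49 (adjusted p = 0.0054) and -0.41 (adjusted p = 0.011); that of RB1 missed the threshold without any 1 of 4 libraries, at adjusted p from 0.052 to 0.089. Among inhibitors CDKN2D, of the INK4 family, had 0.897, 1.4 and 1.5 CPM at 9 h and 1.96, 2.68 and 2.21 CPM at 15 h, a rise of 0.85 ± 0.24 (adjusted p = 0.0082) that missed the threshold without the first 9 h library (adjusted p = 0.056) or the second 15 h library (adjusted p = 0.059). CDKN1C, p57, fell by 0.58 ± 0.14 on the log2 scale (adjusted p = 0.0017). In the fit of all libraries without a block CDKN1A, p21, differed by 0.14 (adjusted p = 0.19) and CDKN1B, p27, by 0.19 (adjusted p = 0.17).

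Many genes changed in the same direction in both arms, which share no library over this interval. The counts of shared calls that follow include members of the cell cycle lists. Of the 1970 genes that rose under palbociclib 1503 also rose in DMSO, 76.3% of the first list and 53% of the 2836 of the second. Of the 2426 that fell, 1615 also fell in DMSO, 66.6% of the first list and 69.3% of the second. Of the rising genes 1 was called lower in DMSO and 55 falling genes were called higher there. Across all 15787 genes the log2 changes of the arms had a Pearson r of 0.47 and a Spearman rho of 0.59, given as a description since genes are not independent and all libraries share one fit. Without the members of the E2F and G2/M lists r was 0.50 over 15659 genes.

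Some lists that moved under palbociclib had medians of the same sign in DMSO. For DMSO and palbociclib they were 0.81 and 0.93 for sterol genes and 0.47 and 0.47 for fatty acid genes. They were 0.60 and 0.57 for the unfolded protein response and -0.25 and -0.29 for ribosome biogenesis. Heat shock genes had -0.12 and -0.20, histone genes -0.38 and -0.60 and immediate early genes -0.22 and -0.34. The medians themselves were not tested. None of the 95 members of the sterol, fatty acid, unfolded protein response and ribosome biogenesis lists was called in edgeR's interaction test, and DESeq2 called 1. An unadjusted p below 0.05 was found in 11 of them (11.6%), against 11.7% of all tested genes. Of the other 3 lists the test called 1 histone gene. INSIG1 changed by 1.90 in DMSO and 1.89 under palbociclib, and AQP3 by -2.65 in each.

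**Figure D5:**
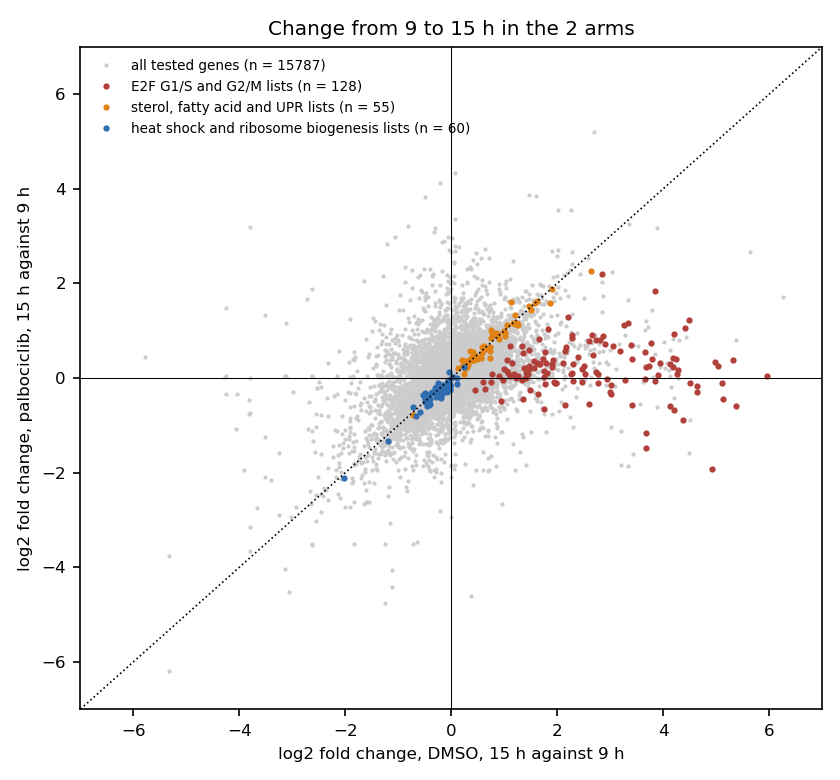
Log2 fold change from 9 to 15 h in DMSO (horizontal) and under palbociclib (vertical) for each tested gene (grey), with lists in colour and the line of equal change dotted. Sterol, fatty acid, unfolded protein response, heat shock and ribosome biogenesis genes lie near the dotted line; E2F and G2/M genes lie to the right, higher in DMSO than under palbociclib.

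The 12 h libraries lay on the way for most genes that changed. The mean level at 12 h was between those of 9 and 15 h in 92.6% of the genes that rose and 91.7% of those that fell, against 58.3% of all tested genes. Called genes were chosen for a gap between the same 9 and 15 h levels, so a higher share follows in part from that choice. From 9 to 12 h 824 genes (5.22%) rose and 1059 (6.71%) fell. These counts are from the fit without a block. With the replicate number as a block in the fit of the 9 libraries 1554 rose and 1577 fell. Squamous genes had covered a median of 34.4% of their change by 12 h, G2/M genes 43.8%, ribosome biogenesis genes 64.0%, proteases 66.7% and clock genes 69.2%. The step counts moved with single libraries. From 9 to 12 h the rises and falls were 518 and 682 without the first 9 h library and 547 and 687 without the third 12 h library, and the falls were 647 without the second 9 h library. From 12 to 15 h they were 117 and 136 without the first 12 h library, 136 and 120 without the second 15 h library and 132 and 160 without the third 15 h library, and the rises were 142 without the second 12 h library.

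Libraries of 1 group differed along a shared axis that held 37.6% of the variance within groups. Its largest scores were 0.15 for the first and -0.13 for the third 15 h library, and 0.09 for the first and -0.07 for the third 9 h library. The weights of the genes on it had a Spearman rho of 0.27 with exon length over 11734 genes, a description across genes. With a length trend removed 2151 genes rose and 2156 fell from 9 to 15 h. Its part in single gene values was not tested.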

How the data were processed

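Stranded libraries of poly(A) RNA gave 75 nt single-end reads, per the labels' protocols. FastQC 0.11.3, TopHat2 2.1.1, Bowtie2 2.2.9, Subread 1.5.1 and GRCh38.p7 are named in the submitters' processing notes. The deposited files hold raw counts for each gene name. Per the file headers, featureCounts 1.5.1 made them from the exons of GENCODE 25 without strand, so reads of genes overlapping on opposite strands cannot be told apart. The 178 names on more than 1 chromosome were kept.

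Groups and replicate numbers came from the labels. Counts of all 31 libraries were fitted by group with edgeR 4.0.16 (R 4.3.3, limma 3.58.1): filterByExpr, TMM factors, the quasi-likelihood F test with 20 residual degrees of freedom and Benjamini-Hochberg adjustment over all 15787 tested genes. The biological coefficient of variation was 6.55%. Replicates of a group differed beyond counting noise (chi-square per degree of freedom 6.05 to 7.76). In simulated counts for 15 h against 9 h, over 15557 genes, 57 of 67 genes changed 1.5-fold were called, 65 of 67 changed 2-fold and 66 of 66 changed 4-fold, with 6 unchanged genes called. The changed genes were drawn from those with a mean log2 CPM above 1, and libraries were simulated independently. Only 194 genes were called there, far fewer than in the data. These rates therefore do not cover genes of lower level or an axis shared by libraries. Correlations of same-numbered libraries' deviations were 0.18, 0.17 and 0.21 between 9 and 12 h, so these numbers were taken to pair the libraries. The pairing comes from the data and not from the labels, and the main fit held no block.

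Members, gene lists and rules were chosen with earlier results of these data known. Named genes were fixed cell cycle and growth genes, the 15 largest changes each way at 15 h against 9 h, the largest 6 each way per step and 8 each way in the difference between arms, and up to 4 members per list and direction, among called genes; exceptions are named as such, and 1 gene of the rule and 1 marker are not reported here. SREBF2, HSP90B1, CRELD2, XBP1 and CALR were named after their values were seen. Alternatives were other size factors, library totals, no count filter, DESeq2 1.42.0, fewer libraries, a replicate block, a length trend removed, a linear trend over the 3 times and leaving out each library. Promoters of RefSeq (GRCh38.p14) were matched by symbol. Matches covered 66.5% of tested genes, 76.2% of rising and 73.9% of falling genes and 78.3% of the sterol list, under the 80% needed, so motif shares of those sets are void and not given.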

Additional observations from a re-analysis of the deposited data

Results flagged for a closer look

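These results differ between palbociclib and DMSO by a test of the difference of their 9 to 15 h changes, the interaction term of the edgeR fit. The change was lower under palbociclib in 618 genes and higher in 21, a count that became 42 with library totals and 46 with no low-count filter. Of the 618, 122 are in the E2F or G2/M lists and 547 rose in DMSO. Of the 21, 14 fell in DMSO.

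Replication and G1/S genes come first. Their differences, palbociclib minus DMSO on the log2 scale, were -2.38 for BRCA1, -0.84 for CCNE1, -0.82 for CHEK1, -1.54 for MCM2, -1.41 for POLE, -0.71 for SLBP, -3.14 for TYMS and -1.80 for UNG. That of CCNE1 (adjusted p = 0.034) missed the threshold in 8 alternatives, at adjusted p up to 0.13. Among mitotic genes the differences were -0.66 for AURKA, -1.37 for CDC20, -5.21 for MKI67 and -2.17 for TTK. CDK4 differed by -0.49 and RB1 by -0.41.

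The genes with the opposite sign are little discussed above. KDM5B, a histone H3 lysine 4 demethylase, stood at 260, 270 and 254 CPM at 9 h and 272, 282 and 266 CPM at 15 h under palbociclib and fell in DMSO by 0.44 on the log2 scale; the difference was 0.51. MXD4, a MAX-binding repressor, differed by 0.45, KLF8, a Krüppel-like factor, by 0.53 and ZNF283, a zinc finger gene, by 0.64.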

How the results depend on the processing

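From 9 to 15 h under palbociclib the calls stayed within 1.5 times the reported counts in every alternative: without 1 library 1629 to 2034 genes rose and 1666 to 2050 fell, of which at least 2-fold 187 to 273 and 206 to 271. Rising genes were 44.8% of the calls, and 44.1% to 51.7% over the alternatives. No shared call changed sign. Without 1 library the step from 9 to 12 h gave 518 to 663 rises and 647 to 800 falls, and that from 12 to 15 h 117 to 219 and 120 to 189, or 164 falls in a fit of these libraries alone. DMSO gave 2350 to 2642 rises and 1764 to 2077 falls. The difference between arms gave 14 to 28 genes higher under palbociclib, 497 to 575 lower and 256 to 286 lower by at least 2-fold. The 21 higher became 33 with RLE size factors, 42 with library totals, 46 with no low-count filter, 33 with the length trend removed and 34 with DESeq2; the cause was not tested.

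With the replicate number as a block, 15 h against 9 h gave 2190 rises and 2655 falls in all 31 libraries and 2742 and 2733 in the 9 palbociclib libraries, where the steps gave 1554 rises at 12 h against 9 h and 491 rises and 503 falls at 15 h against 12 h. In all 31 libraries 32 genes were higher in the difference between arms. Same-numbered libraries at 9 and 15 h correlated at 0.41, 0.09 and 0.39 and at 12 and 15 h at 0.01, 0.23 and 0.27. Because of the low values of 0.09 and 0.01 those numbers were not taken as pairs. Each library correlated best with its own number except replicate 1 at 12 and 15 h, so pairing with the 15 h libraries remains uncertain. In the 9 libraries the block also brought CDKN1A, CDKN1B and EGR1 past the threshold.

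MKI67, which did not pass the test, ranged from -0.14 to 0.00693 without 1 library, the highest without the first 15 h library. The median of the TGF-beta list ranged from -0.15 to 0.00014, again highest without that library, and that of the SR list was -0.00813 with the length trend removed. Low counts limit CDC6, E2F1 and the other genes near 1 CPM.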

Other observations

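Among the largest rises outside the lists described above, ETV1, an ETS transcription factor, went from 0.374, 0.517 and 0.684 CPM at 9 h to 2.47, 2.68 and 2.40 CPM at 15 h under palbociclib (log2 fold change 2.24 ± 0.30). CHRNA9, a nicotinic acetylcholine receptor subunit, went from 2.24, 2.59 and 1.30 CPM to 10.2, 8.60 and 9.08 CPM. EFR3B, a membrane scaffold of a lipid kinase, went from 1.27, 1.66 and 1.85 CPM to 7.93, 7.50 and 7.25 CPM. All 3 genes rose at adjusted p of at most 7.4e-07. The rule that named them took only called genes whose 9 and 15 h libraries did not overlap, so neither trait is a separate finding.

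Among the largest falls, CYP4B1, a cytochrome P450, went from 11.2, 10.0 and 10.5 CPM at 9 h through 3.94, 4.44 and 3.35 CPM to 1.45, 1.64 and 1.32 CPM at 15 h (-2.83 ± 0.15, adjusted p = 7.5e-15). GALNT15, a mucin-type glycosyltransferase, went from 7.70, 6.42 and 7.11 CPM to 1.36, 0.822 and 1.07 CPM. BEST2, a bestrophin channel, went from 4.04, 3.73 and 3.69 CPM to 0.938, 0.219 and 0.505 CPM. These genes also fell in DMSO, by 2.45, 2.94 and 3.26 on the log2 scale.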
